A study of Saccharomyces cerevisiae with 3 samples.

Results

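The genes described here build the sulfur amino acids of Saccharomyces cerevisiae. They are 36 listed genes of sulfate assimilation, of methionine, cysteine and S-adenosylmethionine metabolism, of the matching transport, and of their regulation, taken by gene symbol from the array's annotation. All 36 were on the array, 1 of them, listed as ECM17, under its current symbol MET5, out of 5203 named genes. A value on all 3 arrays was present for 27 of them, on 2 arrays for 4 and on 1 array for 5, and the 27 are the members that could be tested among 3802 genes and unnamed features.

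Yeast takes up sulfate, activates it with ATP and reduces it to sulfide, which is joined to a homoserine derivative to give homocysteine, the branch point between methionine and cysteine. Methionine is converted to S-adenosylmethionine, the main methyl donor of the cell, and the spent donor is hydrolysed back to homocysteine. The activator Met4, held on DNA by Cbf1, Met31, Met32 and Met28, drives many of these genes when sulfur amino acids are scarce, and the ubiquitin ligase that contains Met30 restrains it when they are plentiful.

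Cultures of strain S288C treated with fluazinam, a dinitroaniline fungicide known as an uncoupler of oxidative phosphorylation, were compared with untreated cultures of the same strain. Both were grown in YPD, a rich glucose medium that supplies amino acids, at 25 C; treated cultures of 100 ml in exponential growth received 1.5 uM fluazinam for 2 h, and untreated cultures grew on for 2 h. The labels name no vehicle for the untreated cultures. Per the series' design text, the arrays are of independent biological samples. The labels do not state if the 3 untreated RNAs were from separate cultures. Each of the 3 arrays held cDNA of treated cells in Cy5 and of untreated cells in Cy3, so a gene-specific dye effect and the treatment cannot be told apart.

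All values are the authors' normalised log ratios, read as log2 of treated over untreated. Neither the base nor the direction was stated. The direction is likely from the treated sample being channel 1, and if it ran the other way each sign below would turn; another base would change the sizes but no call against 0. Values were present for 71.2% to 83.6% of 6272 probes per array, array medians lay between -0.02 and 0.09, and correlations between arrays across all features ran from 0.434 to 0.629. The number of arrays limits the precision, and no spot intensities were at hand. A ratio holds no level, so neither the strain label nor the abundance of a transcript could be checked, and in a bulk culture fewer cells with a transcript and less of it per cell cannot be told apart.

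Fluazinam-treated cells had more mRNA of MET17 and MET13 and less of SAH1 than untreated cells, and no other member passed an adjusted p of 0.05. MET17 encodes the O-acetylhomoserine sulfhydrylase that fixes sulfide into homocysteine. MET13 encodes the main methylenetetrahydrofolate reductase, which supplies the methyl group for methionine. SAH1 encodes the hydrolase that recycles S-adenosylhomocysteine. In the limma fit over all features, 3.39% were called higher and 4.47% lower, so 2 of 27 members higher and 1 of 27 lower is near the background, and the values of single genes carry the description below. The median of the 27 mean log2 ratios was 0.24, with medians of 0.10, 0.49 and 0.02 on replicates 1 to 3, against 0.05, -0.07 and -0.03 for all features. Of the 27, 16 had a mean above 0 and 11 below, and the median was 0.07 without replicate 2 and 0.08 after each probe's value was taken relative to the median of its inferred sub-grid of spots.

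**Figure D1:**
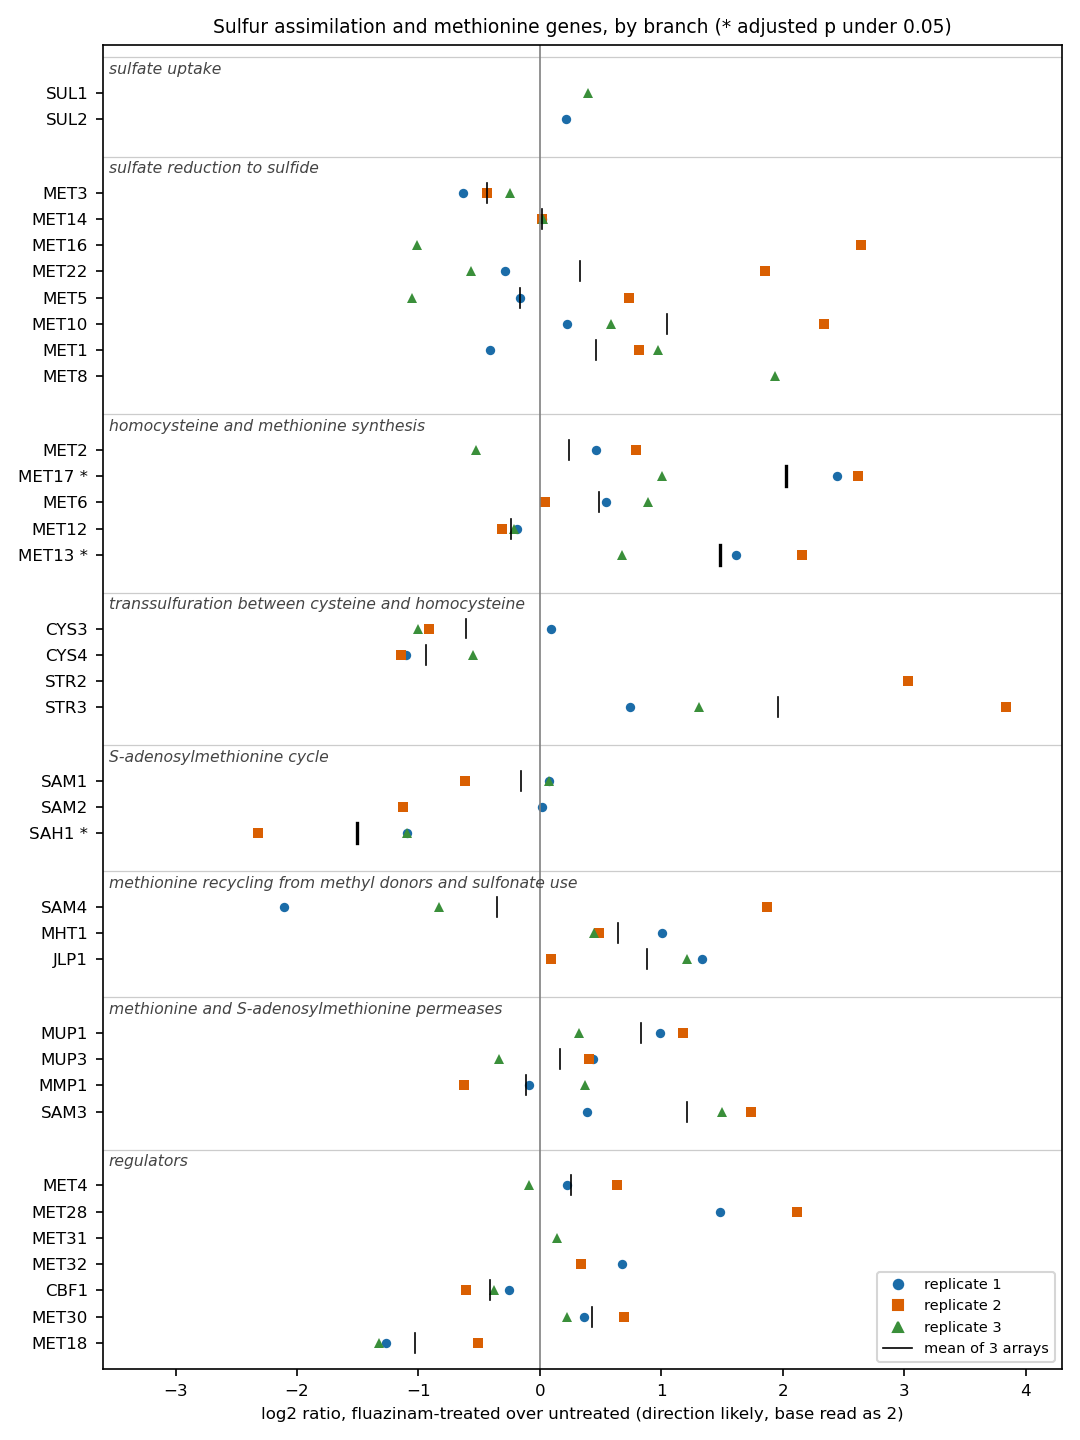
Log2 ratio of treated over untreated cells for each of the 36 genes, grouped by branch, with a point for each of the 3 arrays and a vertical line at the mean where all arrays gave a value. MET17, MET13 and SAH1, the only ones past an adjusted p of 0.05, have all 3 points on 1 side of 0, while SAM4 spreads from -2.11 to 1.87.

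Homocysteine and methionine synthesis held both of the rises. MET17 (YLR303W) had log2 ratios of 2.44, 2.62 and 1.00 on replicates 1 to 3. All arrays were above 0, with replicate 3 well below the other two. The mean of 2.02 ± 0.89 (SD, n = 3) is a 4.07-fold rise if the base is 2 (95% interval 1.15 to 2.89 on the log2 scale; limma adjusted p = 0.0289), and ranked 44th from the top of all features. MET13 (YGL125W) was at 1.61, 2.16 and 0.67. The order of the arrays was that of MET17, and the mean of 1.48 ± 0.75 passed by little (limma adjusted p = 0.0447).

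The rest of that branch did not pass. MET12 (YPL023C), the minor isozyme of Met13, was at -0.19, -0.31 and -0.21, a mean of -0.24 ± 0.06. It was therefore slightly below 0 on each array on which MET13 was above 0, and the difference of MET13 minus MET12 was 1.81, 2.47 and 0.89. MET6 (YER091C), the methionine synthase itself, was at 0.54, 0.04 and 0.89, above 0 on each array and near 0 on replicate 2. Its mean of 0.49 ± 0.42 did not pass (adjusted p = 0.288). Its probe lay in a sub-grid, a block of spots inferred from the probe numbers, with medians of -0.91, -0.87 and 0.12. After subtraction of such medians its mean was 1.05 (adjusted p = 0.0444), while MET13 then missed the threshold at 1.39 (adjusted p = 0.0526). MET2 (YNL277W), the homoserine acetyltransferase that makes the acceptor used by Met17, had 0.46, 0.79 and -0.52 and so took both signs. The branch median was 0.49 over 5 genes.

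Sulfate uptake could hardly be read. The sulfate permease gene SUL1 had a value on replicate 3 alone (0.40), and its partner SUL2 on replicate 1 alone (0.21).

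Sulfate reduction showed no gene past the threshold, and its members went different ways. MET3 (YJR010W), the ATP sulfurylase of the first step, was at -0.64, -0.44 and -0.25, a mean of -0.44 ± 0.20 (adjusted p = 0.296). Its sub-grid medians were nearly as low, at -0.48, -0.40 and -0.13, and after their subtraction the mean was -0.10. MET14 (YKL001C), the kinase of the second step, was at 0.015, 0.021 and 0.022, almost no difference on any array. The moderated 95% interval of its mean nevertheless ran from -0.57 to 0.61. MET16 (YPR167C), the reductase of the third step, lacked a value on replicate 1 and was at 2.64 and -1.01 on replicates 2 and 3. Its 2 arrays thus gave opposite signs, so no direction can be stated.

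The sulfite reductase subunits differed in mean. MET10 (YFR030W), the alpha subunit, was at 0.22, 2.34 and 0.59. All arrays were above 0 and replicate 2 stood far above the others. The mean of 1.05 ± 1.13 did not pass (adjusted p = 0.154), and it was 0.41 without replicate 2 (adjusted p = 0.540). MET5 (YJR137C), the beta subunit, was at -0.17, 0.74 and -1.05, on both sides of 0. MET1 and MET8 make sirohaem, the cofactor of that enzyme. MET1 (YKR069W) was at -0.41, 0.82 and 0.97, and MET8 (YBR213W) had only replicate 3, at 1.93.

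MET22 (YOL064C), the phosphatase that removes the nucleotide by-product of sulfate reduction, was at -0.29, 1.85 and -0.57. Only replicate 2 was above 0, and the mean of 0.33 ± 1.32 did not pass (adjusted p = 0.678). The branch median over 6 genes was 0.18, with -0.23, 0.78 and -0.11 on the arrays, and it was -0.20 without replicate 2, so its sign rested on that array.

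Of the transsulfuration genes, which carry sulfur between homocysteine and cysteine, none passed. STR2 and STR3 lead from cysteine to homocysteine. STR3 (YGL184C), the cystathionine beta-lyase, was at 0.74, 3.83 and 1.31, above 0 on every array. Replicate 2 stood far above the rest. The mean of 1.96 ± 1.65, close to that of MET17, did not pass (adjusted p = 0.0762), and it was 1.02 without replicate 2 (adjusted p = 0.0767). STR2 (YJR130C), the cystathionine gamma-synthase, had replicate 2 alone, at 3.03.

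CYS4 and CYS3 lead the other way, from homocysteine to cysteine. CYS4 (YGR155W), the cystathionine beta-synthase, was at -1.10, -1.14 and -0.55. All arrays were below 0, and the mean of -0.93 ± 0.33 did not pass (adjusted p = 0.0772). Its sub-grid medians of -0.48, -0.22 and -0.58 were also below 0, and after their subtraction the mean was -0.50 (adjusted p = 0.242). CYS3 (YAL012W), the cystathionine gamma-lyase, was at 0.10, -0.91 and -1.00, below 0 on replicates 2 and 3 only. The mean was -0.61 (limma adjusted p = 0.240). The sub-grid medians of CYS3 were 0.57, 0.07 and -0.04, and after their subtraction its mean was -0.81 (limma adjusted p = 0.0688).

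In the S-adenosylmethionine cycle, SAH1 (YER043C) fell, with -1.09, -2.32 and -1.09 on replicates 1 to 3. Replicates 1 and 3 were alike and replicate 2 was lower still. The mean of -1.50 ± 0.71 corresponds to a 2.83-fold fall at base 2 (95% interval -2.28 to -0.72 on the log2 scale; limma adjusted p = 0.0418). The sub-grid medians of SAH1 differed between arrays, at -0.36, -0.63 and 0.16. After their subtraction its mean was -1.23 (limma adjusted p = 0.0367). The S-adenosylmethionine synthetase genes SAM1 and SAM2 are close copies, and a probe may take signal from both. SAM1 (YLR180W) was at 0.07, -0.62 and 0.08 and SAM2 (YDR502C) at 0.020 and -1.13 on replicates 1 and 2, so both were near 0 on replicate 1 and lower on replicate 2.

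Of the methyltransferases that rebuild methionine from homocysteine, SAM4 (YPL273W), which uses S-adenosylmethionine, had the widest spread of the tested members, at -2.11, 1.87 and -0.83. Replicate 2 opposed the other arrays, the mean was -0.36 ± 2.03, and without replicate 2 the gene was lower at -1.47 (adjusted p = 0.0142). MHT1 (YLL062C), which uses S-methylmethionine, was at 1.01, 0.49 and 0.45, above 0 throughout, with a mean of 0.65 ± 0.31 that did not pass (adjusted p = 0.160). JLP1 (YLL057C), a dioxygenase that frees sulfite from sulfonates, was at 1.34, 0.09 and 1.21. Here replicate 2 was the low array, and the mean of 0.88 ± 0.68 did not pass (adjusted p = 0.126), but 1.28 without replicate 2 did (adjusted p = 0.0242).

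The permease genes had a median of 0.50 and none passed. SAM3 (YPL274W), the S-adenosylmethionine permease, was at 0.39, 1.74 and 1.50, above 0 on every array, with a mean of 1.21 ± 0.72 (adjusted p = 0.0707). MUP1 (YGR055W), the high-affinity methionine permease, was at 0.99, 1.18 and 0.32, also above 0 throughout, with a mean of 0.83 ± 0.45 (adjusted p = 0.108). The low-affinity permease gene MUP3 (YHL036W) was at 0.44, 0.40 and -0.34, and MMP1 (YLL061W), the S-methylmethionine permease gene, at -0.09, -0.63 and 0.37, each with both signs.

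Among the regulators, none passed the test on 3 arrays. MET4 (YNL103W), the activator, was at 0.23, 0.64 and -0.09, a mean of 0.26 ± 0.36 (adjusted p = 0.570). MET28 (YIR017C), a leucine zipper cofactor of Met4 and itself a target of it, had 1.49 and 2.12 on replicates 1 and 2 and no value on replicate 3. Both values were high, and in a fit that also took genes with 2 arrays its mean of 1.80 passed at the margin (adjusted p = 0.04997, background 2.29% called higher). The sub-grid medians of MET28 on replicates 1 and 2 were 0.49 and 0.15, and it was in no fit with such medians subtracted.

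The zinc-finger gene MET32 (YDR253C) was at 0.67 and 0.34 on replicates 1 and 2, and its paralogue MET31 (YPL038W) at 0.14 on replicate 3, so no array held both. CBF1 (YJR060W), the helix-loop-helix factor that also serves at centromeres, was at -0.26, -0.61 and -0.37, a mean of -0.41 ± 0.18 (adjusted p = 0.319). MET30 (YIL046W), the F-box protein that targets Met4, was at 0.36, 0.69 and 0.22, a mean of 0.43 ± 0.24 (adjusted p = 0.312). Both kept 1 sign on all arrays, but their 95% intervals, -1.02 to 0.19 for CBF1 and -0.19 to 1.04 for MET30, include 0.

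MET18 (YIL128W) is named for the methionine requirement of its mutant and encodes a factor of cytosolic iron-sulfur protein assembly. Its values were -1.26, -0.51 and -1.32. All were below 0, the mean of -1.03 ± 0.45 did not pass (adjusted p = 0.0714), and without replicate 2 it did, at -1.29 (adjusted p = 0.0221).

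**Figure D2:**
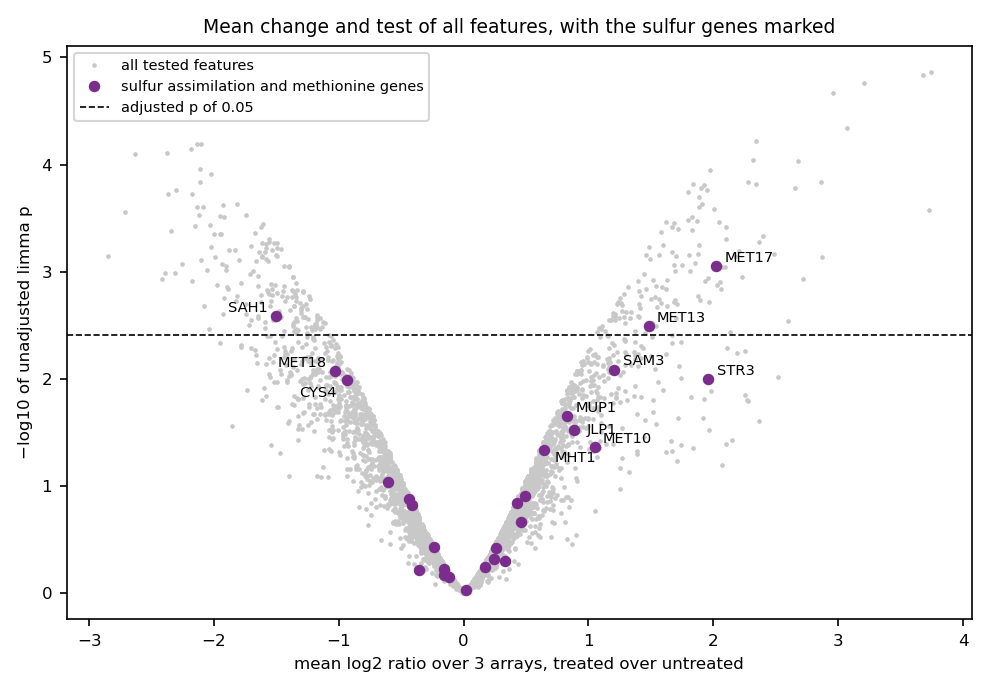
Mean log2 ratio over 3 arrays (horizontal) against −log10 of the unadjusted limma p (vertical) for all 3802 tested features in grey and the 27 tested sulfur genes in purple, with a dashed line at an adjusted p of 0.05. MET17 and MET13 lie above the line on the right and SAH1 on the left, with STR3, at a mean of 1.96, below it.

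Across the branches, 11 of the 27 members were above 0 on all 3 arrays and 6 below 0 on all 3, against a background of 25.2% and 27.1% of all features. An unadjusted p under 0.05 was reached by 11 members, against 29.7% of all features. Those above 0 throughout were MET14, MET10, MET17, MET6, MET13, STR3, MHT1, JLP1, MUP1, SAM3 and MET30, and those below 0 throughout were MET3, MET12, CYS4, SAH1, CBF1 and MET18. Subtraction of sub-grid medians also brought the means of MET18 to -0.65, MHT1 to 0.37 and JLP1 to 0.57.

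The calls depended on the arrays. Without replicate 1 no member passed, with 0.289% of all features called, and without replicate 3 none passed either, with 0.0% called. Without replicate 2, MET17 at 1.72 and JLP1 passed as higher, beside 7.31% of all features, and MET18 and SAM4 as lower, beside 9.97%. SAH1 then missed the threshold at -1.09 (adjusted p = 0.0543), as did MET13 at 1.14 (adjusted p = 0.0503).

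Replicate 2 was the highest array for 13 of the 27 members, or 48.1%, against 30.7% of all features. Genes of leucine, isoleucine and valine, arginine, lysine and histidine synthesis, which the general amino acid control activator Gcn4 is known to drive, had replicate 2 highest for 27 of 28 measured. Their array medians were -0.87, 1.75 and -0.50. LEU2 was the 1 gene of these 28 past the threshold, beside 3.39% of all features called higher. It was at 1.91, 2.18 and 1.62, a mean of 1.90 ± 0.28 (limma adjusted p = 0.0249), and so was high on every array. It did not pass without replicate 1 or without replicate 3. The lists of those 28 genes were chosen with earlier results of these data known, so their counts and medians are a description. The value on replicate 2 minus the mean of the other arrays had a median of 0.40 over the sulfur genes, 2.47 over those 28 genes and -0.04 over all features. Among the sulfur genes this difference was 3.34 for SAM4, 2.81 for STR3, 2.28 for MET22 and 1.93 for MET10, which lie above the 95th percentile of all features (1.38).

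MET5 followed with 1.35, just inside that percentile. The sulfur genes did not share 1 direction, since SAH1 (-1.23) and JLP1 (-1.18) lay just below the 5th percentile of all features (-1.176). MET17 (0.90) and MET13 (1.01) lay within the central range. No test of these differences between lists was made, and why replicate 2 differed was not tested.

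**Figure D3:**
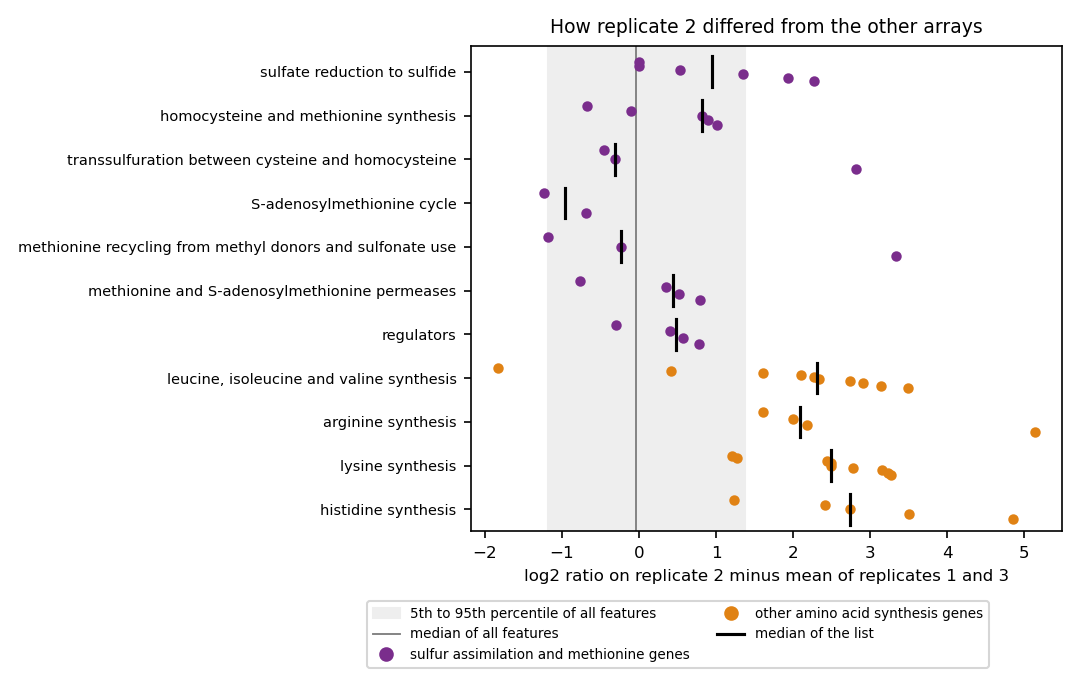
Log2 ratio on replicate 2 minus the mean of replicates 1 and 3 for each gene with a value on all arrays, by branch of the sulfur genes (purple) and by list of other amino acid synthesis genes (orange), with the median of each list as a black line. The grey band spans the 5th to 95th percentile of all features, -1.18 to 1.38; SAM4, STR3, MET22 and MET10 lie to its right with most of the orange points.

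Genes of related function can be set side by side within each array. These pairs were chosen after their values were seen and are a description. The log2 ratio of MUP1 exceeded that of MUP3 by 0.55, 0.78 and 0.66, a mean of 0.66 ± 0.11, the tightest of the pairs before any sub-grid correction. The sub-grid medians were 0.07, 0.01 and -0.08 for MUP1 and 0.32, -0.07 and -0.58 for MUP3. After their subtraction the means were 0.83 for MUP1 and 0.28 for MUP3, and the spread of their difference was not computed. SAM3 exceeded MMP1, a permease of the same family, by 0.48, 2.36 and 1.13. STR3 exceeded CYS4 by 1.84, 4.98 and 1.86. MHT1 and SAM4, the methyltransferase pair, differed by 3.11, -1.38 and 1.28 and so changed order on replicate 2. No difference between these genes is called, since an exact two-sided sign-flip test over 3 arrays cannot give a p below 0.25.

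Some of these genes are neighbours. SAM3 and SAM4 lie side by side on chromosome XVI, and their log2 ratios were 0.39 and -2.11 on replicate 1, 1.74 and 1.87 on replicate 2 and 1.50 and -0.83 on replicate 3, alike on replicate 2 alone. MHT1 and MMP1 are adjacent on chromosome XII, and MHT1 was the higher on each array.

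Among further sulfur genes outside the 36, 1 rose and 2 fell. Of 32 genes in 5 lists, 29 had a value on all arrays, 26 of these did not pass, and 18 of the 29 had a mean below 0. With 3.39% of all features called higher, 4.47% lower and 1910 of 3802 below 0 in mean, these counts are near the background. YCT1 (YLL055W), a cysteine transporter gene separated from JLP1 by 1 gene, rose, at 1.32, 2.05 and 0.85, a mean of 1.41 ± 0.61 (adjusted p = 0.0418). It was above 0 on every array, with the same order of arrays as MET13. It was the 1 call among the 5 genes of sulfur uptake and use with a value on all arrays, beside 3.39% of all features; SEO1 (0.84 and 0.35 on replicates 1 and 2) and AGP3 (0.45 on replicate 1) had fewer values.

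Methionine salvage returns the sulfur of methylthioadenosine left by polyamine synthesis. Its list also holds the polyamine synthesis genes SPE2, SPE3 and SPE4. The 7 genes of the list with a value on all arrays had means below 0, with a median of -0.63. Of all 3802 features, 1910 had a mean below 0. Among the salvage enzymes, MDE1 and UTR4 took both signs, and ADI1, with replicate 2 alone, was at 0.92. MEU1 (YLR017W), the methylthioadenosine phosphorylase of the first salvage step, fell, at -1.91, -1.29 and -1.56, a mean of -1.59 ± 0.31 (adjusted p = 0.0277). The 3 arrays lay close together. Its sub-grid medians were -0.48, -0.22 and -0.58, and after their subtraction the mean was -1.16 (limma adjusted p = 0.0293). Of the polyamine synthesis genes, SPE3, the spermidine synthase gene, was at -1.09 ± 0.40 (adjusted p = 0.0598). MRI1, the next salvage enzyme, was at -0.63 ± 0.06 (adjusted p = 0.145).

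In the supply of homoserine and folate, SHM2 (YLR058C), the cytosolic serine hydroxymethyltransferase that loads the folate later reduced by Met13, fell, at -3.14, -2.27 and -1.69. Its mean of -2.37 ± 0.73 (adjusted p = 0.0249) was the 7th lowest of all features. The sub-grid medians of SHM2 were -0.80, -0.40 and 0.39, and after their subtraction its mean was -2.10 (limma adjusted p = 0.0201). MET7, the folylpolyglutamate synthetase gene, was at -0.88, -0.67 and -0.09. HOM2 and HOM3, on the way to homoserine, were at -1.69, 2.72 and -0.18 and at -0.66, 2.42 and -0.83, with replicate 2 opposed to the others as in SAM4. HOM6, the last enzyme on that way, was at -0.41, -0.40 and 0.17 and did not share this.

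Neither of the remaining lists held a call. Of 7 glutathione genes, the largest mean was that of ECM38, the gamma-glutamyl transpeptidase that breaks glutathione down, at 0.98 ± 0.44 (adjusted p = 0.0767). GSH1, the first enzyme of glutathione synthesis, was at -0.88 ± 0.60 (adjusted p = 0.113). Of 4 genes for partners of Met30 in its ubiquitin ligase, the largest mean was that of the RING subunit gene HRT1, at 0.50 ± 0.56 (adjusted p = 0.313). Without replicate 1 or without replicate 3, none of YCT1, MEU1 and SHM2 passed, and YCT1 did not pass without replicate 2 (adjusted p = 0.0577) or in the fit that took genes with 2 arrays (adjusted p = 0.0535).

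**Figure D4:**
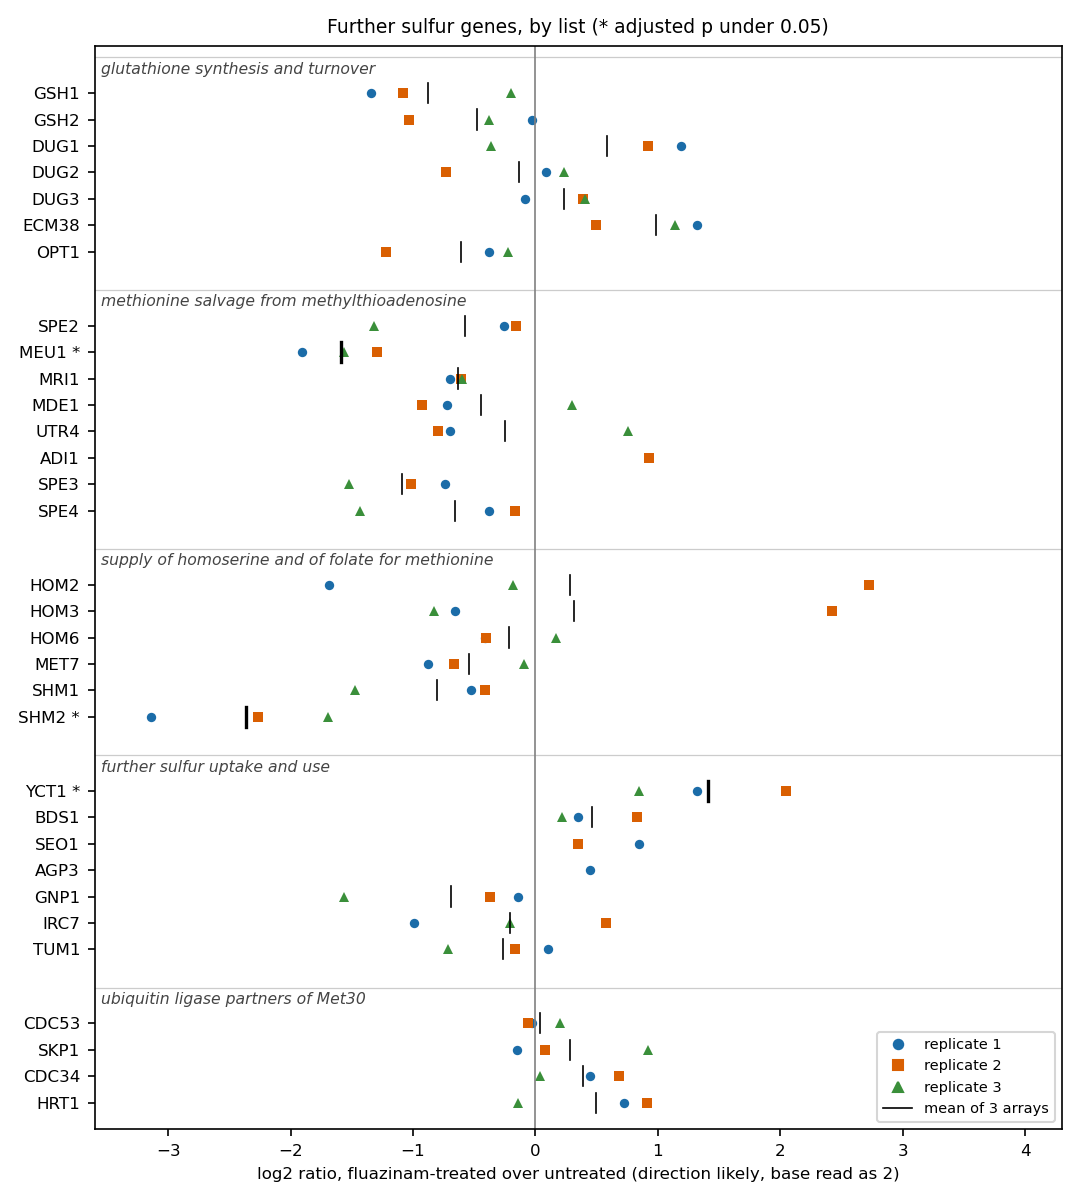
Log2 ratio of treated over untreated cells for 32 further sulfur genes in 5 lists, with a point for each of the 3 arrays and a vertical line at the mean where all arrays gave a value. YCT1 lies above 0, MEU1 and SHM2 lie below 0 on all 3 arrays, and HOM2 and HOM3 have replicate 2 far to the right of the others.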

How the data were processed

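PolyA RNA of treated and untreated yeast was hybridised together on 3 two-colour arrays. The authors deposited 1 table of log ratios, read here as log2 and LOWESS-normalised from spots whose flag was 0, per the labels. How spots were scanned and background-corrected, and the base and direction, are not given in the sources used here. Per the series' design text, the arrays are of independent biological samples. Probes were named through GEO's platform annotation and the RefSeq gene table (assembly R64): 5308 of 6272 had 1 symbol, 0 several and 964 none. Of 88 genes with more than 1 probe, which were averaged, 65 had identical values on all their probes; each member had 1. Probe sequences were not used here, so close copies may share signal.

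For each feature with a value on all 3 arrays, limma 3.58.1 (R 4.3.3; lmFit, eBayes) tested the mean log2 ratio against 0, with p-values adjusted by Benjamini and Hochberg over 3802 features, threshold 0.05, and tested on simulated data. SDs are over arrays. The members and lists were chosen with earlier results of these data known, so no test was made over a list. Named were the members, list genes past the threshold or with the largest mean, and MRI1, SPE3, GSH1, MET7, HOM2, HOM3, HOM6, MDE1, UTR4, ADI1, SEO1 and AGP3, added after their values were seen. Alternatives were centring, scale and quantile normalization of the arrays, 2 arrays required, first probe, robust or no moderation, array weights, a threshold of 0.01, a test against 1.5-fold, medians of sub-grids inferred from the probe numbers, and each array left out.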

Additional observations from a re-analysis of the deposited data

How the results depend on the processing

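MET17, MET13 and SAH1 kept their direction under all alternatives run. All 3 passed after centring, a common median absolute deviation, quantile normalization, the first listed probe, robust moderation and array weights. These settings called 7.77% to 10.9% of all features in either direction, so 3 of 27 members is near the background. None of the 3 genes passed with no moderation, a threshold of 0.01 or a test against a 1.5-fold change. Those 3 settings called 1, 0 and 4 features higher and 0, 0 and 0 lower, 0 members higher and 0 lower, against 129 and 170 features and 2 and 1 members, while 1129 features and 11 members had an unadjusted p under 0.05. Requiring only 2 arrays left MET17 and MET28 higher and 0 members lower of 31 tested, beside 2.29% and 2.51% of all features. SAH1 (limma adjusted p = 0.0538) and MET13 (limma adjusted p = 0.0582) missed the threshold in that fit. The regulators' median, -0.08 over the 4 with a value on all arrays, then became 0.34, since MET28 and MET32 entered. Subtracting sub-grid medians gave a median of 1.05 for homocysteine and methionine synthesis, against 0.49. Leaving out each array gave 0 to 278 features higher, 0 to 379 lower, 0 to 2 members higher and 0 to 2 lower, and medians of 0.46 to 0.71 for homocysteine and methionine synthesis and of 0.39 to 0.74 for the permeases; the cause was not tested. Small means changed sign: MET14 became -0.0049 after centring and -0.012 after subtraction of sub-grid medians, and MET2 -0.063 after the latter. Over the arrays left out, SAM4 ran from -1.47 to 0.52, MET22 from -0.43 to 0.78, MET2 from -0.031 to 0.63, SAM1 from -0.27 to 0.075, MMP1 from -0.36 to 0.14 and MET5 from -0.61 to 0.29. Each array pairs treated with untreated RNA, so the test of the mean log ratio against 0 already uses that pairing. The study has 1 contrast, and no other paired analysis was made. Signal over background was unknown, so why 9 members lacked values on some arrays was not tested.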
